A study of Mus musculus with 8 samples.

Results

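The genes described here carry out antigen presentation on major histocompatibility complex (MHC) class I molecules: the heavy chains H2-K1 and H2-D1, their light chain B2m, the peptide transporter and its partner (Tap1, Tap2, Tapbp), the immunoproteasome subunits Psmb8, Psmb9 and Psmb10, and the transcriptional activator Nlrc5. They were chosen by name, and each was read from the probe set annotated to it, the brightest where a gene had several. All 10 were found among 30711 named genes, each with 1 probe set. The annotation of the Nlrc5 probe set also names the microRNA gene Mir7072, which lies inside Nlrc5, so the 2 cannot be told apart in that value. That of H2-D1 carries a second gene ID beside its own.

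RNA was measured in the colons of 8 mice of the C57BL/6 strain, all Rag1-/- and therefore without mature T or B cells of their own. Controls were 5 mice injected with regulatory T cells (Treg-injected, non-inflamed colons), and the inflamed group was 3 mice injected with naïve T cells (Naïve T-injected, severely inflamed colons), with 1 array per mouse. Per the labels, injection was at 10 weeks of age, death came 2 to 4 months later, and the age is given as 4 to 5 months. Both groups thus received T cells, and uninjected mice are not analysed here. The sampled region is given differently in the labels, once as distal colon and once as a strip running from cecum to rectum. The comparison asks how severe T cell colitis changes expression in the colon.

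Nearly every nucleated cell shows peptides from its own cytosol on class I molecules, where CD8 T cells read them. Proteasomes cut proteins into peptides, the TAP transporter moves them into the endoplasmic reticulum, and a loading complex that holds tapasin (Tapbp), calreticulin and a disulfide isomerase places them in the groove of a heavy chain paired with beta-2 microglobulin (B2m). Interferon-gamma raises many of these genes, replaces catalytic subunits of the proteasome by immunosubunits, and induces NLRC5, which activates class I genes much as CIITA activates class II genes. In the colon both epithelial cells and immune cells express the pathway.

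Of these genes, Psmb9, Tap1, Psmb8 and Tap2 follow one another as consecutive protein-coding genes on chromosome 17 in the RefSeq annotation, with Tap1 and Psmb9 starting back to back. RefSeq (GRCm38.p6) promoter windows, from 250 bases before to 50 after a gene start, were found for 8 of the 10. The stretches below are shown because the classical class I promoters carry a known array of elements and because Tap1 and Psmb9 share a single promoter region. Capitals mark matches on either strand to the interferon response motifs GAAANNGAAA and GAANNGAAA, to a kappa B motif, to TGACG and to ATTGG. The stretches are H2-K1 at chr17:34000348-34000467 (minus strand), H2-D1 at chr17:35262914-35263093 (plus), B2m at chr2:122147527-122147686 (plus) and the bases between the Psmb9 and Tap1 starts at chr17:34187331-34187555 (plus).
H2-K1: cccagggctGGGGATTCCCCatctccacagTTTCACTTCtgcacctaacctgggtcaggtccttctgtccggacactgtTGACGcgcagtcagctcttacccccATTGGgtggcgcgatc
H2-D1: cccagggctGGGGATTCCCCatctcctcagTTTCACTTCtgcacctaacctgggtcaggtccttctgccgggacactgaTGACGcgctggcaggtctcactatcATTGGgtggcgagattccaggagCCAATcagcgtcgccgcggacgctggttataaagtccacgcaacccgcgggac
B2m: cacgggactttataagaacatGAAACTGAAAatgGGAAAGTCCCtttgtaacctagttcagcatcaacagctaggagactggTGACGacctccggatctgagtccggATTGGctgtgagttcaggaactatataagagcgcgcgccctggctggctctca
Tap1 and Psmb9: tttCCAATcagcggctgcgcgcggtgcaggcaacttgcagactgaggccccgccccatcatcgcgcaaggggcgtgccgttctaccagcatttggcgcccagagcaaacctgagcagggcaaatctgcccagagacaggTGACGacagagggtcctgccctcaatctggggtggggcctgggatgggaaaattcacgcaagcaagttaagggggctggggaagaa

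The upstream bases of H2-K1 and H2-D1 were compared by local alignment, which keeps only the best-matching stretch. In that stretch they were identical at 161 of 177 aligned positions (91.0%), and upstream bases outside it were not counted. The kappa B, GAANNGAAA, TGACG and ATTGG matches came in the same order in both. The kappa B motif was found in the windows of H2-K1, H2-D1 and B2m, against 8.46% of 32851 mouse promoter windows of the same length. TGACG was in those of H2-K1, H2-D1, B2m, Tap1 and Psmb9 (20.8% of all windows), and ATTGG in those of the same 5 genes and Tapbp (37.4%). GAAANNGAAA was in the B2m window (3.44% of all) and GAANNGAAA in those of H2-K1 and H2-D1 (7.52%). The gamma-activated motif TTCNNNGAA was in the Psmb8 window (8.3%). These matches describe letters in a window. GAANNGAAA and TGACG were added to the search after the sequences were seen, and the windows of Tap1 and Psmb9 both hold the bases printed between them.

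Arrays had median log2 values between 4.81 and 4.91 over all probe sets other than controls. Over 65956 probe sets other than controls, Pearson's r was 0.994 to 0.997 between control arrays and 0.98 to 0.986 between groups. Inflamed replicate 2 stood apart, with r of 0.987 and 0.986 to the other inflamed arrays, which were at 0.995 to each other. Xist was high, as in females, on controls 3 to 5 and inflamed replicate 3, and low on the other arrays, so the sexes were mixed in both groups. Of the labelled tissue, the epithelial marker Epcam (12.19 to 12.29) and the muscle marker Acta2 (11.28 to 12.31) were bright on all arrays, and the B cell markers Ms4a1, Cd79a and Pax5 stayed at 3.61 to 5.29. T cell markers of the controls were about as dim, with Cd3e at 5.03 to 5.18 and Cd2 at 4.20 to 4.72, so T cell RNA was not shown on control arrays.

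Across the pathway, inflamed colon had higher levels of the activator, of both transporter subunits and of all 3 immunosubunits, while H2-K1, the light chain and tapasin did not pass the test. Of the 10 genes, 7 rose and 0 fell (limma, Benjamini-Hochberg adjusted p under 0.05 over all genes), where 8.07% of all genes rose, 5.04% fell and 13.1% changed either way. The median difference of the 10 genes was 0.57 on the log2 scale, against -0.01 for all genes. For 8 of the 10 all inflamed values lay above all control values, which held for 12.0% of all genes. Without inflamed replicate 1, 3 of the 10 rose, and without inflamed replicate 2 it was 7. Over all genes, 2512 and 4579 were called in those fits, rises and falls together, against 4027 with all 8 arrays. These are whole-tissue levels, so more cells of a type and more RNA per cell cannot be told apart.

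**Figure D1:**
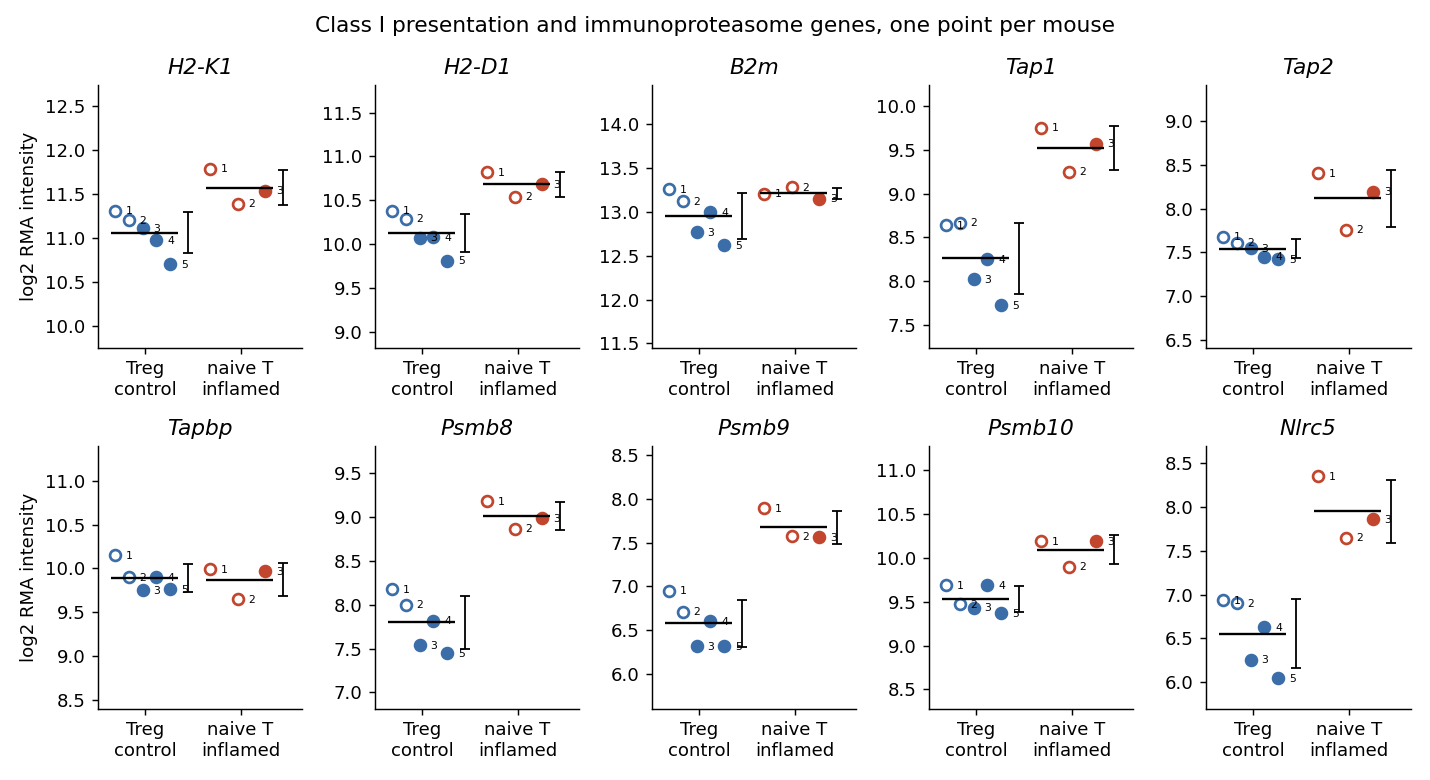
Log2 RMA intensity of the 10 genes by group, 1 point per mouse numbered by replicate; filled points are arrays with high Xist, open points arrays with low Xist, lines are group means and bars the SD; each panel spans the same number of log2 units around its own centre. Inflamed points lie above all controls except in the panels of B2m and Tapbp.

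Nlrc5, the activator of class I transcription, showed the largest difference of the 10 genes. Its log2 values were 6.94, 6.90, 6.26, 6.63 and 6.05 in controls 1 to 5 and 8.35, 7.65 and 7.86 in inflamed replicates 1 to 3. The groups did not overlap, and the control values spread over 0.89 log2 units. The mean went from 6.56 ± 0.39 (SD, n = 5) to 7.95 ± 0.36 (SD, n = 3), a 2.63-fold rise of 1.39 ± 0.25 on the log2 scale (standard error, adjusted p = 0.0127). This call held with each array left out in turn.

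TAP is a dimer of Tap1 and Tap2, and the Tap1 difference was the larger of the 2. Tap1 was at 8.64, 8.67, 8.02, 8.25 and 7.73 in the controls and at 9.75, 9.25 and 9.57 in the inflamed replicates. It rose by 1.26 ± 0.24, a 2.39-fold change, with a 95% interval of 0.70 to 1.82 (adjusted p = 0.0153). Every inflamed value was above the highest control, although the controls themselves spread widely. Tap2 was at 7.68, 7.61, 7.55, 7.45 and 7.42 in the controls and at 8.40, 7.76 and 8.19 in the inflamed replicates. It rose by 0.58 ± 0.14 or 1.49-fold, interval 0.25 to 0.90 (adjusted p = 0.036), and inflamed replicate 2 lay just above the control range. Leaving out any 1 control, or inflamed replicate 1 or 3, ended the Tap2 call (adjusted p = 0.0549 to 0.0976), and leaving out inflamed replicate 1 ended the Tap1 call (adjusted p = 0.0627).

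Tapbp encodes tapasin, which bridges TAP to the class I heavy chain and edits the bound peptide. Its values were 10.15, 9.90, 9.75, 9.90 and 9.76 in the controls and 9.99, 9.65 and 9.97 in the inflamed replicates. The ranges overlapped, with inflamed replicate 2 the lowest of all arrays and control 1 the highest. The difference was -0.02 ± 0.11 (adjusted p = 0.918) with a 95% interval from -0.29 to 0.24. The difference was -0.12 after quantile normalization, and its sign turned without control 1 (0.04) or inflamed replicate 2 (0.09).

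The heavy chains differed by similar amounts, on either side of the threshold. H2-K1 was at 11.31, 11.20, 11.11, 10.97 and 10.70 in the controls and at 11.79, 11.39 and 11.54 in the inflamed replicates. The inflamed values lay above all controls, but replicate 2 by a margin smaller than the spread within either group. The difference of 0.52 ± 0.15 (1.43-fold, interval 0.17 to 0.87) did not pass the test (adjusted p = 0.0642). H2-D1 was at 10.38, 10.29, 10.07, 10.08 and 9.81 in the controls and at 10.82, 10.54 and 10.68 in the inflamed replicates. It rose by 0.56 ± 0.13 (1.47-fold, interval 0.25 to 0.86, adjusted p = 0.0336). The 2 genes are close paralogs whose probes may share signal, so a difference between them is not shown by these calls. The H2-K1 call was gained with dim genes left out (adjusted p = 0.031), array medians aligned (0.0418), a floor (0.0333) or array weights (0.0259). Those weights were 0.174 for inflamed replicate 2, the lowest inflamed array for H2-K1, and 0.842 to 1.71 for the other arrays. The H2-D1 call ended when control 3, control 4, inflamed replicate 1 or inflamed replicate 3 was left out (adjusted p = 0.0742 to 0.119).

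B2m, the invariant light chain shared by class I and class I-like molecules, was at 13.26, 13.12, 12.77, 13.00 and 12.62 in the controls and at 13.21, 13.28 and 13.15 in the inflamed replicates. Control 1 lay within the inflamed range and the other controls below it, and the 3 inflamed arrays were within 0.13 of each other. The difference was 0.26 ± 0.14 (interval -0.08 to 0.59, adjusted p = 0.287), and 0.04 after quantile normalization (adjusted p = 0.915).

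The 3 immunosubunits are the inducible catalytic subunits that replace the constitutive ones. Psmb8 was at 8.18, 8.0, 7.54, 7.82 and 7.45 in the controls and at 9.18, 8.87 and 8.99 in the inflamed replicates. The inflamed arrays lay close together and well above every control. Psmb8 rose by 1.22 ± 0.18, or 2.33-fold (adjusted p = 0.00532), and Psmb9 by 1.09 ± 0.16, or 2.14-fold (adjusted p = 0.0058). Psmb9 was at 6.95, 6.71, 6.32, 6.60 and 6.32 in the controls and at 7.89, 7.57 and 7.56 in the inflamed replicates. Both calls held with each array left out in turn. Psmb10 was at 9.69, 9.47, 9.43, 9.69 and 9.37 in the controls and at 10.19, 9.90 and 10.19 in the inflamed replicates. It rose by 0.57 ± 0.11 or 1.48-fold (interval 0.32 to 0.81, adjusted p = 0.0141), beside intervals of 0.81 to 1.63 for Psmb8 and 0.71 to 1.47 for Psmb9, a difference between subunits that was not tested. Without inflamed replicate 1 the Psmb10 call was lost (adjusted p = 0.0587).

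**Figure D2:**
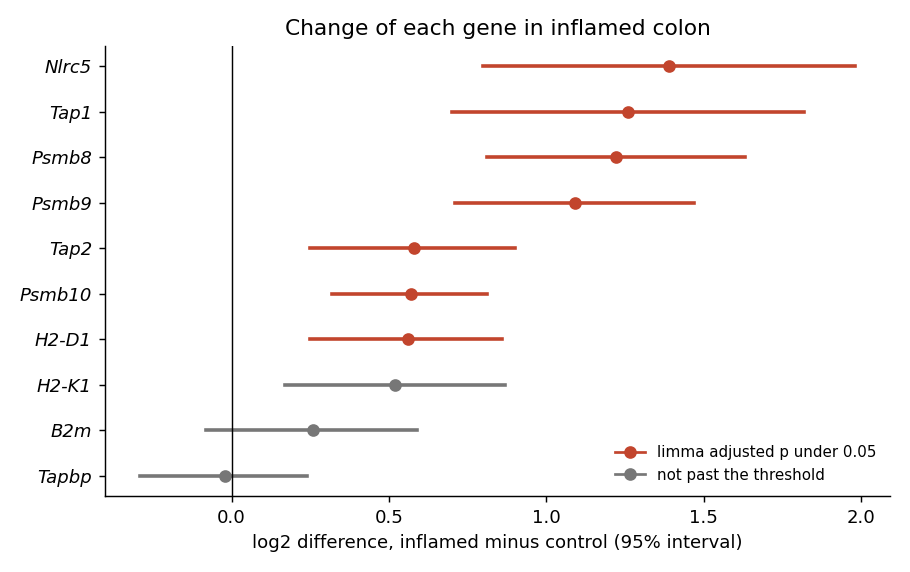
Log2 difference of inflamed minus control colon for the 10 genes with its 95% interval from limma (n = 5 control and 3 inflamed arrays), sorted by size; colour shows whether the adjusted p passed 0.05. Nlrc5, Tap1, Psmb8 and Psmb9 lie between 1.09 and 1.39, a group from H2-K1 to Tap2 between 0.52 and 0.58, and B2m and Tapbp at 0.26 and -0.02.

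Each immunosubunit was set against the constitutive subunit whose place it takes, within each array, so that probe brightness drops out of the comparison between groups. Psmb6, the counterpart of Psmb9, differed by 0.15 ± 0.0408 (adjusted p = 0.0565) and Psmb7, the counterpart of Psmb10, rose by 0.61 ± 0.12 (adjusted p = 0.0178). The Psmb7 call was lost without inflamed replicate 1 (adjusted p = 0.0674), and Psmb6 passed without control 3 (0.17, adjusted p = 0.043). Psmb9 minus Psmb6 was -1.54, -1.66, -2.19, -1.83 and -2.06 in the controls and -0.68, -1.04 and -1.01 in the inflamed replicates. The inflamed differences all lay above the control range, and the means were 0.95 apart (exact two-sided permutation p = 0.0179, the smallest that 56 splits can give, or 0.0357 adjusted over 2 pairs). Shifts from 0.49 to 1.51 were not rejected by that test at 0.05. Psmb10 minus Psmb7 was 0.60, 0.37, 0.30, 0.80 and 0.63 in the controls and 0.55, 0.13 and 0.81 in the inflamed replicates. Here the groups overlapped, with a difference of -0.04 (exact permutation p = 0.839) and shifts from -0.50 to 0.50 not rejected. Psmb8 was not paired, because the probe set of its counterpart Psmb5 is annotated to a second gene and was not used here.

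**Figure D3:**
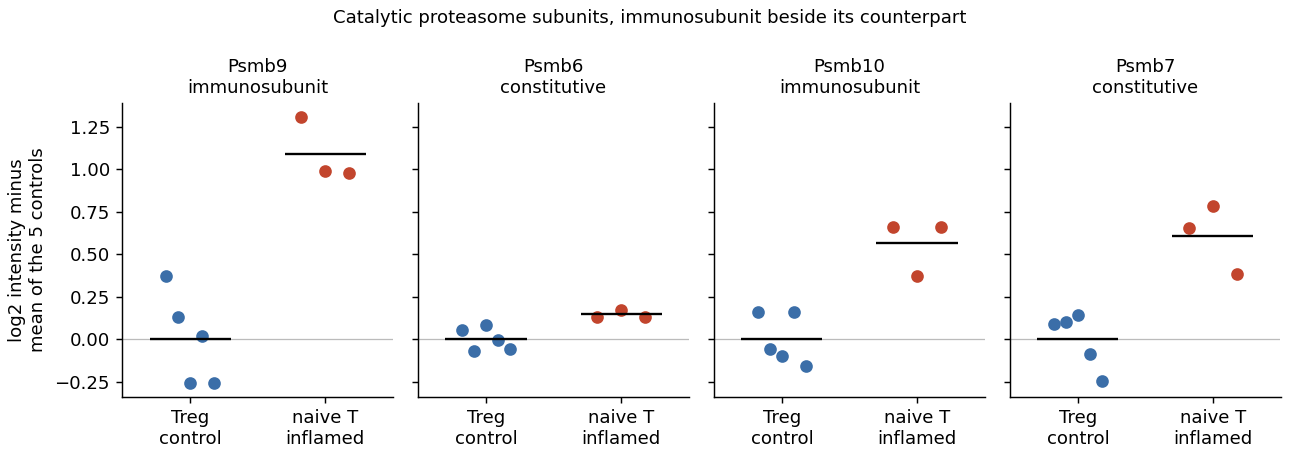
Log2 intensity minus the mean of the 5 controls for Psmb9 and Psmb10 and their constitutive counterparts Psmb6 and Psmb7, 1 point per mouse with the group mean as a line. Psmb9 rose by 1.09 beside 0.15 for Psmb6, while Psmb10 and Psmb7 moved by 0.57 and 0.61.

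Control mice varied in these genes in a shared way. Controls 1 and 2 were both above controls 3, 4 and 5 for 8 of the 10 genes, the exceptions being Tapbp and Psmb10, and 7.27% of all genes showed that order. Control 5 was the lowest control for 9 genes. Among inflamed mice, replicate 1 was highest for 9 genes and replicate 2 lowest for 8, ties at the printed precision aside. How often these arrays took those positions over all genes was not counted, so they may not be particular to this set. Controls 1 and 2 also had the highest summed intensity of leukocyte markers (338 and 348 against 305 to 319) and of macrophage markers (760 and 765 against 573 to 674). The brightest macrophage marker in every control was Ly6c2 (log2 8.54, 8.70, 8.27, 8.37 and 7.89). Cd14 also had controls 1 and 2 highest, but Adgre1, Cd68, Csf1r and Fcgr1 did not. The T cell sum was 158, 163, 158, 166 and 162 in controls 1 to 5. T cell RNA was not shown on control arrays, so no order is read from that sum. Controls 1 and 2 were also the controls with low Xist. The part of these cell types and of sex in the order of the controls was not tested.

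Within the arrays with low Xist, 2 against 2, the differences were 1.08 for Nlrc5, 0.84 for Tap1, 0.94 for Psmb8 and 0.90 for Psmb9. They were 0.47 for Psmb10, 0.44 for Tap2, 0.35 for H2-D1 and 0.34 for H2-K1. Among the arrays with high Xist, 3 controls against 1 inflamed mouse, the same genes differed by 1.54, 1.57, 1.39 and 1.15, and by 0.69, 0.71, 0.70 and 0.61. All 8 genes thus differed upward within both sexes. B2m differed by 0.05 and 0.35, and Tapbp by -0.20 and 0.16. With sex as a block in the fit, 6 of the 10 genes rose, and Tap2 no longer passed (adjusted p = 0.0706). Over all genes 3275 were then called, against 4027 without the block.

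Other class I heavy chains changed unevenly. Of 15 measured nonclassical and class I-like genes, 4 rose and 0 fell, against 8.07% and 5.04% of all genes. Their median difference was 0.06. H2-M3, which presents formylated bacterial peptides, was at 6.16, 6.06, 6.01, 5.96 and 5.95 in the controls and at 7.0, 7.09 and 6.83 in the inflamed replicates. The inflamed values stood clear of a tight control group, a rise of 0.95 ± 0.0715 (adjusted p = 0.000514). H2-M2 was at 6.60, 6.52, 5.97, 6.20 and 6.01 in the controls and at 9.0, 9.18 and 6.87 in the inflamed replicates. It rose by 2.09 ± 0.51 (adjusted p = 0.0385), but replicate 3 was near the controls, and without it the difference was 2.83 (adjusted p = 0.00113). Leaving out any 1 control, or inflamed replicate 1 or 2, ended the H2-M2 call (adjusted p = 0.0658 to 0.133).

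H2-Q4 rose by 0.93 ± 0.21 (adjusted p = 0.0309) and H2-T10 by 0.55 ± 0.13 (adjusted p = 0.0326). Both have near-identical neighbours in the class I region, so their probe sets may read several genes. Neither passed with sex as a block (adjusted p = 0.0574 for H2-Q4 and 0.0639 for H2-T10), nor with control 3, 4 or 5 or inflamed replicate 1 or 3 left out, and H2-T10 not without control 2. In that list 1 gene rose without control 3, 4 or 5 or inflamed replicate 1, and 2 rose without control 2 or inflamed replicate 3. Cd1d1, which presents lipids, and Mr1, which presents microbial metabolites, differed by 0.02 ± 0.0501 and 0.08 ± 0.0985. Fcgrt, the neonatal Fc receptor chain that pairs with B2m, differed by -0.38 ± 0.15 (adjusted p = 0.143).

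Helpers of peptide loading rose too. Of 9 genes of loading and trimming in the endoplasmic reticulum, 5 rose and 0 fell, against 8.07% and 5.04% of all genes. Their median was 0.30, and 3 rose without inflamed replicate 1. The chaperone gene Calr, encoding calreticulin of the loading complex, rose by 0.51 ± 0.0804 (adjusted p = 0.00707), and Pdia3, its disulfide isomerase partner, rose by 0.44 ± 0.0836 (adjusted p = 0.0155; 0.41 and 0.0815 after quantile normalization). Tapbpl, a tapasin-related peptide editor, was at 8.43, 8.14, 8.31, 8.29 and 8.13 in the controls and at 9.02, 8.71 and 8.85 in the inflamed replicates. All inflamed values lay above the controls, a rise of 0.60 ± 0.0931 (adjusted p = 0.00689), whereas Tapbp itself did not pass. Hspa5, a general chaperone of that compartment also known as BiP, rose by 0.71 ± 0.14 (adjusted p = 0.0157), a call lost without inflamed replicate 1 (adjusted p = 0.0502). The trimming peptidase gene Erap1 differed by 0.28 ± 0.0777 (adjusted p = 0.057).

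On the cytosolic side, 7 of 9 measured genes for proteasome activators, assembly and peptidases rose and 0 fell (all genes: 8.07% and 5.04%). Their median was 0.42, and 4 rose without inflamed replicate 1. Lap3, a leucine aminopeptidase, led with 1.13 ± 0.18 (adjusted p = 0.00712), from 8.03 to 8.87 in the controls and 9.47 to 9.66 in inflamed colon. Pomp, a chaperone of proteasome assembly, rose by 0.52 ± 0.12 (adjusted p = 0.026), and the peptidase gene Npepps rose by 0.47 ± 0.0475 (adjusted p = 0.00143). Psme1, a subunit of the activator PA28 that caps the immunoproteasome, rose by 0.25 ± 0.0446 (adjusted p = 0.0115), a call lost after quantile normalization (0.16, adjusted p = 0.0829). Psme3, the subunit of the nuclear form of that activator, rose by 0.42 ± 0.0822 (adjusted p = 0.0178). Leaving out control 2, 3 or 4 or any 1 inflamed array ended the Pomp call (adjusted p = 0.0505 to 0.0718), and leaving out inflamed replicate 1 that of Psme3 (adjusted p = 0.0519).

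Subunits of the proteasome core rose as well. Of the 11 other subunits of the 20S core, 8 rose and 0 fell, against 8.07% and 5.04% of all genes. Their differences ran from 0.13 to 0.66 with a median of 0.42. Psma5 was at 8.38, 8.45, 8.53, 8.33 and 8.38 in the controls and at 9.20, 9.01 and 9.0 in the inflamed replicates. That is a rise of 0.66 ± 0.0622 (adjusted p = 0.00113) with no overlap. Psma1 rose by 0.59 ± 0.0889 (adjusted p = 0.00628), Psma3 by 0.56 ± 0.0839 (adjusted p = 0.00606) and Psma7 by 0.54 ± 0.071 (adjusted p = 0.00365). These are structural alpha subunits, and their differences were of the size seen for Psmb10 (0.57).

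**Figure D4:**
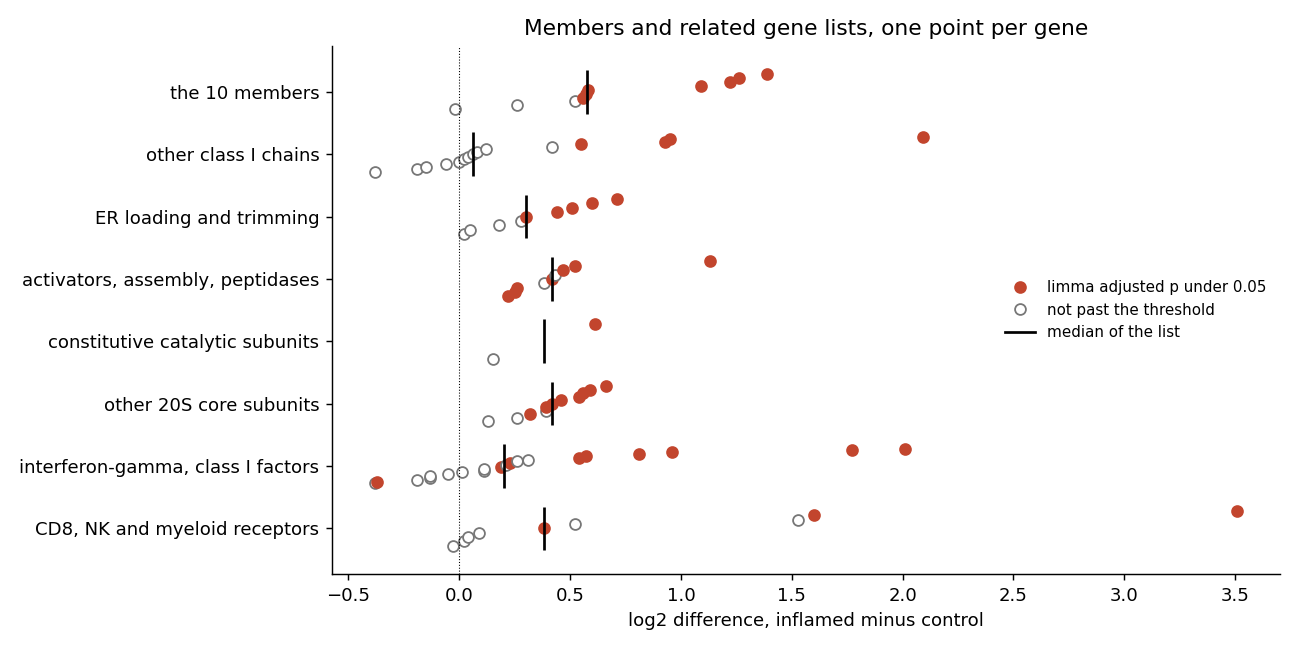
Log2 difference of inflamed minus control colon for each measured gene of the 10-gene set and of 7 related lists, 1 point per gene, filled where the limma adjusted p was under 0.05; the black line is the median of the list. Medians run from 0.06 for other class I chains to 0.57 for the 10 genes, and the 20S core subunits lie between 0.13 and 0.66.

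Regulators of the pathway changed in part. Of 20 measured genes of interferon-gamma signalling and class I transcription, 8 rose and 1 fell, against 8.07% and 5.04% of all genes. Their median was 0.20. Ifng, the cytokine gene itself, was at 3.92, 4.01, 3.74, 4.01 and 3.89 in the controls and at 6.39, 5.71 and 5.66 in the inflamed replicates. All controls lay under the dim limit of 4.89, the median of the array medians over all probe sets other than controls. The rise of 2.01 ± 0.17 (adjusted p = 0.000687) thus has an uncertain size. With values floored at each array's median over the named genes only, a separate and higher limit, the difference was 0.26 (adjusted p = 0.227). Ciita, the class II activator related to Nlrc5, was at 6.66, 6.48, 5.72, 5.50 and 5.58 in the controls and at 7.88, 7.64 and 7.75 in the inflamed replicates. It rose by 1.77 ± 0.30 (adjusted p = 0.00952), and its controls 1 and 2 were again the highest.

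Irf1, a transcription factor induced by interferon-gamma, rose by 0.96 ± 0.15 (adjusted p = 0.00722), and Irf8, its relative in myeloid and lymphoid cells, by 0.81 ± 0.17 (adjusted p = 0.0241). As the mean over its probe sets, Irf1 differed by 0.54 (adjusted p = 0.0507). Leaving out control 3, 4 or 5, or inflamed replicate 1 or 3, ended the Irf8 call (adjusted p = 0.0558 to 0.0892). Of the RFX complex, with which NLRC5 binds class I promoters, Rfx5 differed by 0.11 ± 0.0413 (adjusted p = 0.13), Rfxap by -0.05 ± 0.0545 (adjusted p = 0.539), and Rfxank fell by 0.37 ± 0.0632 (adjusted p = 0.0098). In that list 4 to 7 genes rose with single arrays left out, with 4 rising without control 4 or 5 and 5 without control 2 or 3 or inflamed replicate 1. Without control 5, 2 genes fell, and without inflamed replicate 2, 3 fell.

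A list of CD8 chains and of NK and myeloid cell receptors was measured as well. Of 9 such genes, 3 rose and 0 fell, with a median of 0.38 (all genes: 8.07% rose and 5.04% fell). Of the 3, Lilrb4a, an inhibitory receptor of myeloid cells, is not an established receptor for class I. It was at 6.31, 6.20, 5.69, 5.62 and 5.51 in the controls and at 9.02, 9.17 and 9.92 in the inflamed replicates. It rose by 3.51 ± 0.27 (adjusted p = 0.000535). Pirb, a myeloid inhibitory receptor for class I, rose by 1.60 ± 0.17 (adjusted p = 0.00176). Klrc1, the NKG2A chain of an NK cell receptor for class I, rose by 0.38 ± 0.0733 (adjusted p = 0.0164) at levels under the dim limit, and not without inflamed replicate 1 (adjusted p = 0.0625). Cd8a, the CD8 alpha chain, was at 5.19 to 5.63 in the controls and at 8.30, 6.22 and 6.11 in the inflamed replicates. Its inflamed values all exceeded the controls, but replicate 1 was far above the rest, and the difference of 1.53 ± 0.48 did not pass (adjusted p = 0.0816). It passed without replicate 1 (0.82, adjusted p = 0.0132), with dim genes left out (adjusted p = 0.0381) and with array weights (2.14, adjusted p = 0.02). Cd8b1, the beta chain of conventional CD8 T cells, was at 5.28 to 5.33 in the controls and 5.18 to 5.34 in inflamed colon.

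Markers of leukocytes, T cells and macrophages rose, and those of epithelium were split. All 5 leukocyte markers rose, where 8.07% of all genes rose and 5.04% fell. Their summed intensity was 305 to 348 in the controls and 1160 to 1360 in inflamed colon. All 5 measured T cell markers rose (158 to 166 against 372 to 681), as did all 6 monocyte and macrophage markers (573 to 765 against 4130 to 6350). Of 9 epithelial markers, 1 rose and 3 fell, and their summed intensity was 49900 to 54600 in the controls and 45800 to 52500 in inflamed colon. Epcam, a pan-epithelial marker, differed by -0.01 ± 0.0321. The marker that rose was Krt20, by 0.58 ± 0.12 (adjusted p = 0.0199). Those that fell were Muc2 (-0.69 ± 0.17, adjusted p = 0.0381), Lgr5 (-0.57 ± 0.15, adjusted p = 0.0443) and Car1 (-0.29 ± 0.0548, adjusted p = 0.0144). Of 6 muscle and stroma markers 2 fell and 0 rose, with sums of 7280 to 10500 against 5500 to 6330. The list was split: the muscle genes Myh11, Acta2 and Des differed by -0.72, -0.73 and -0.73. The collagen genes Col1a1, Col1a2 and Col3a1 differed by 0.41, 0.39 and 0.49, and none of them passed. Among endothelial markers, 0 of 4 passed. On the inflamed arrays, the T cell sum was highest on replicate 1, where 9 of the 10 class I genes were highest too, and lowest on replicate 3. The macrophage sum ran the other way, at 4130 on replicate 1, 5180 on replicate 2 and 6350 on replicate 3. Most of that sum was Ly6c2 (log2 11.73, 12.06 and 12.42). Cd14 (7.97, 8.44 and 8.18) and Cd68 (6.84, 7.66 and 7.12) were highest on replicate 2, and Adgre1, Csf1r and Fcgr1 on replicate 3. The part of these cell types in the rise of the class I genes was not tested.

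The genes most like the class I set over the 8 arrays, by Pearson's r with the mean of the 10 genes each centred on its own mean, were Slc7a1 (r = 0.989), Igtp (0.987), Celsr1 (0.986), Dnmt1 (0.985) and Psmd2 (0.984). The points fall into the 2 groups of mice, so these values largely follow the group difference. Igtp, an interferon-induced GTPase, was at 8.89, 8.72, 8.03, 8.26 and 7.39 in the controls and at 10.59, 10.17 and 10.49 in the inflamed replicates. Igtp rose by 2.16 ± 0.33 (adjusted p = 0.00674). Its controls 1 and 2 were highest and control 5 lowest, as in Slc7a1, Celsr1 and Dnmt1. Picking genes by r over these same arrays favours that order. In Psmd2 control 5 was also lowest, but control 4 lay above control 2. Psmd2, a subunit of the regulatory cap of the proteasome, rose by 0.44 ± 0.0729 (adjusted p = 0.0093), and Dnmt1, the maintenance DNA methyltransferase, by 0.36 ± 0.065 (adjusted p = 0.0124), a call that ended without inflamed replicate 1 (0.0519).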

How the data were processed

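RNA of 8 colons, 1 array per mouse, was hybridised after biotin labelling (GeneChip WT Plus kit, per the labels' protocols). The deposited values are log2 intensities, for which the submitters' processing notes name Expression Console and RMA. For versions and array model: not given in the sources used here. Values themselves show the log2 scale. The files give no counts or detection calls, so the number of arrays limits the precision. Of 72688 probe sets, 6732 controls were left out. Names came from the array annotation, updated through RefSeq: 31266 probe sets had 1 gene, 33206 none, and 1483 with several genes were left out, that of Nlrc5 being kept by the rule for the 10 genes. The brightest probe set stood for a gene (30711 genes). Differences are limma 3.58.1 estimates in R 4.3.3 (lmFit, eBayes, no covariate) with standard errors and unadjusted 95% intervals; p-values were adjusted by Benjamini-Hochberg over all genes, and an adjusted p under 0.05 is called a rise or fall. The script was tested on simulated data. Subunit pairs used exact permutation. Replicates are biological per the titles. The genes and lists were chosen with earlier results of these data known. In each list, up to 4 genes past the threshold with the largest change were named, besides genes fixed by name and the 5 most alike. Genes whose probe sets name several genes (Psmb5 and Psme2 among them) were not analysed here. Cd8a, Cd8b1, Cd1d1, Mr1, Fcgrt, Erap1, Rfxap, Rfxank, Cd3e, Cd2, Acta2 and Epcam were named after their values were seen. So were Ly6c2, Cd14, Cd68, Adgre1, Csf1r, Fcgr1, Myh11, Des, Col1a1, Col1a2, Col3a1, Krt20, Muc2, Lgr5 and Car1. A comparison of protein sequences was planned and not made. Alternatives were other scalings, a floor, dim genes left out, variance models, array weights, probe set means, sex or replicate number as a block, and each array left out. The floor and the limit for leaving out dim genes used medians over the named genes, not the dim limit of 4.89.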

Additional observations from a re-analysis of the deposited data

Results flagged for a closer look

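Of 45 sets of control values examined, 2 had a control far from the other 4, and chance gives about 1 in 20. Control 5 was low for Irf1 (8.80, with the others at 9.12 to 9.25) and for Psma3 (9.01, with the others at 9.22 to 9.28). It was also the lowest control for 9 of the 10 class I genes, a position not counted over all genes.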

How the results depend on the processing

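Directions of the 10 genes held under all alternatives run, except for Tapbp, which was 0.07 with array weights and 0.04 to 0.09 without control 1 or inflamed replicate 2. H2-K1 passed after median centring (0.53), with dim genes left out (0.52), array weights (0.63) or a floor (0.52). Tap2 did not pass with sex as a block (0.56), and 2 other class I chains then rose. A pairing of mice by replicate number was not seen, which 3 pairs cannot exclude. Deviations of same-numbered arrays correlated at -0.285, -0.0532 and 0.0686, and those of differently numbered arrays at -0.217 to 0.346. With the replicate block limma called 0 of all genes, with 4922 at an unadjusted p under 0.05, 8 of the 10 among them. The called class I genes were then 0, with H2-D1 at 0.44, Tap1 1.08, Tap2 0.50, Psmb8 1.11, Psmb9 1.01, Psmb10 0.57 and Nlrc5 1.25 (B2m, not called before, was at 0.16), and all 7 related lists had 0 rises and 0 falls. In that block Psmb9 minus Psmb6 was 0.89 and Psmb10 minus Psmb7 0.07, in a design of 3 pairs that cannot pass. Genes of the interferon-gamma list that fell numbered 3 after quantile normalization or with array weights, and 2 with dim genes left out or a floor.

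With each array left out in turn, differences ranged from 0.41 to 0.61 for H2-K1, 0.48 to 0.63 for H2-D1, 0.17 to 0.33 for B2m, 1.13 to 1.40 for Tap1, 0.43 to 0.75 for Tap2, -0.08 to 0.09 for Tapbp, 1.13 to 1.31 for Psmb8, 0.99 to 1.19 for Psmb9, 0.52 to 0.66 for Psmb10 and 1.20 to 1.55 for Nlrc5. Rises numbered 3 to 7 for the 10 genes, 1 to 4 for other class I chains, 3 to 5 for loading genes, 4 to 6 for activators and peptidases, 0 to 2 for constitutive subunits, 6 to 8 for the core, 4 to 7 (falls 1 to 3) for the interferon-gamma list and 3 to 4 for the receptor list. Calls over all genes ranged from 2512 (without inflamed replicate 1) to 4579 (without inflamed replicate 2), against 4027 with every array kept. Psmb9 minus Psmb6 ranged from 0.83 to 1.03 and Psmb10 minus Psmb7 from -0.20 to 0.14, turning sign without control 4 (0.02) or inflamed replicate 2 (0.14). With 7 arrays the adjusted exact p of the former was 0.0571 to 0.0952, the smallest such splits can give over 2 pairs. The cause of these shifts was not tested. Signal near background limits Ifng and Klrc1.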
